A study of Mus musculus with 2 samples.

Results

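The collagen chain genes of the mouse were followed through 2 total RNA-seq libraries of embryonic intestine. Members were all protein-coding genes whose symbol has the form Col, a type number, a and a chain number, as annotated in GENCODE. All 44 such genes of the annotation were in the gene tables, out of 21474 protein-coding genes and 43346 genes in all. The rule itself uses no expression value, though it was set with earlier results of these data known.

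Both libraries came from B6NCrl mice at embryonic day 14.5 and form the only group, so there was no contrast between conditions, no treatment and no mutant. Per the labels, each library is from 1 pup's intestine (pup 1 of pregnant female 2), taken on 17 July for replicate 1 and on 15 July for replicate 2. They give the sex as pooled and the same donor record for both, so whether the libraries are separate embryos rests on the collection dates alone. Input was 10 ng of total RNA above 200 nucleotides, with spike-in RNA added. Replicate 1 held 32938592 and replicate 2 32371363 estimated counts in genes. Values below are in TPM, the relative abundance of transcripts, a level scaled to transcript length and to the total of its library. Means are given ± SD (n = 2), and the spread is that between these 2 libraries, which may be technical in part.

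Collagens are the main structural proteins of the extracellular matrix. Each molecule is a triple helix whose chains may be products of different genes, and each chain repeats a Gly-X-Y triplet because only glycine fits at the centre of the helix. In the gut wall, fibrillar collagens fill the mesenchyme between epithelium and muscle, network-forming type IV collagen underlies epithelium, endothelium, smooth muscle and nerve as basement membrane, and fibril-associated and beaded filament collagens link these structures.

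The Gly-X-Y repeat that defines these proteins is shown for the 5 abundant chains on which the ratios within types I and IV and the highest level rest. Sequences are the coding strand of GENCODE M21 transcripts on GRCm38, 5′ to 3′, with each glycine codon of the repeat in capitals. The first 20 triplets of the longest uninterrupted repeat were taken from the fibrillar chains Col3a1 (chromosome 1), Col1a1 (chromosome 11) and Col1a2 (chromosome 6).
Col3a1: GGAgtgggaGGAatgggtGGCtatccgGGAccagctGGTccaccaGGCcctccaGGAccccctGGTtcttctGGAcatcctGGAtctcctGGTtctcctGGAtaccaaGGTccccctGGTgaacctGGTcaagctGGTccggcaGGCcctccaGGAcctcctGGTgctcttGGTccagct
Col1a1: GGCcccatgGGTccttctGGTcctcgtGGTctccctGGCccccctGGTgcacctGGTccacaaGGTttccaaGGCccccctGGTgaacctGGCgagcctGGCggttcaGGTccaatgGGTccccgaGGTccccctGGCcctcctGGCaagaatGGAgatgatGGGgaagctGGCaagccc
Col1a2: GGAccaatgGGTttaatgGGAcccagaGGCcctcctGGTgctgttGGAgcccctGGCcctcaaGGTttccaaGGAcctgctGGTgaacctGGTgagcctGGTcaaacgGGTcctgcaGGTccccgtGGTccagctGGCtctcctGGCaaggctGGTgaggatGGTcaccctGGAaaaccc
The basement membrane chains Col4a1 and Col4a2, both on chromosome 8, are shown across the end of their longest repeat, an interruption, and the start of the next repeat.
Col4a1: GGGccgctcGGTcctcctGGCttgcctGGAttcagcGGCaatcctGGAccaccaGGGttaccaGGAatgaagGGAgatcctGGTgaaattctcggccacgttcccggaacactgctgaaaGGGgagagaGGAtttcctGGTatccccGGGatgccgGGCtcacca
Col4a2: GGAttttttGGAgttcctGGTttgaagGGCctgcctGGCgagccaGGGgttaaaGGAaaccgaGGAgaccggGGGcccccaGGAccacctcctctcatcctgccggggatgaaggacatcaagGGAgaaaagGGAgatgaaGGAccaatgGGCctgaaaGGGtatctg
Between the last full triplet of the first run and the first glycine of the next lie 10 residues in Col4a1 and 11 in Col4a2. All 44 chain genes encoded at least 1 uninterrupted run of 20 or more Gly-X-Y triplets in their longest coding transcript. The longest run held 344 triplets in Col3a1, 338 in Col1a1 and 339 in Col1a2. In Col4a1 it held 40 and in Col4a2 66, because their repeats were broken into 16 and 22 runs of at least 5 triplets. Glycine was encoded by GGT in 55.9% of the triplets of the longest Col1a1 run and 51.6% of those of Col1a2. Over the longest runs of all members together GGT made up 31.3% of 5311 glycine codons, against 17.7% of the glycine codons of all other protein-coding genes. This pooled share weights each member by the length of its run, so the long fibrillar runs count most. Taken gene by gene, 37 of the 44 members lay above the share of the other genes. Col4a2 was close to it at 18.2%, and the lowest member was Col13a1 at 9.09%.

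At TPM 1 or more in both libraries, the limit used here for detection, 33 of the 44 chain genes were detected, or 75%, against 61.3% of all protein-coding genes. Their levels ran from Col4a4 at 0.0850 ± 0.0495 to Col3a1 at 1584 ± 125. The median over all 44 was 5.44, close to the 4.89 of protein-coding genes. The median of the detected members was 15.6 and that of detected protein-coding genes 18.4. The family held both some of the highest levels in the tissue and a tail near the limit of detection. Together the chain genes made up 0.429% of gene TPM in replicate 1 and 0.420% in the other library. Their share of estimated counts, which are not divided by length, was 1.25% and 1.28%.

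**Figure D1:**
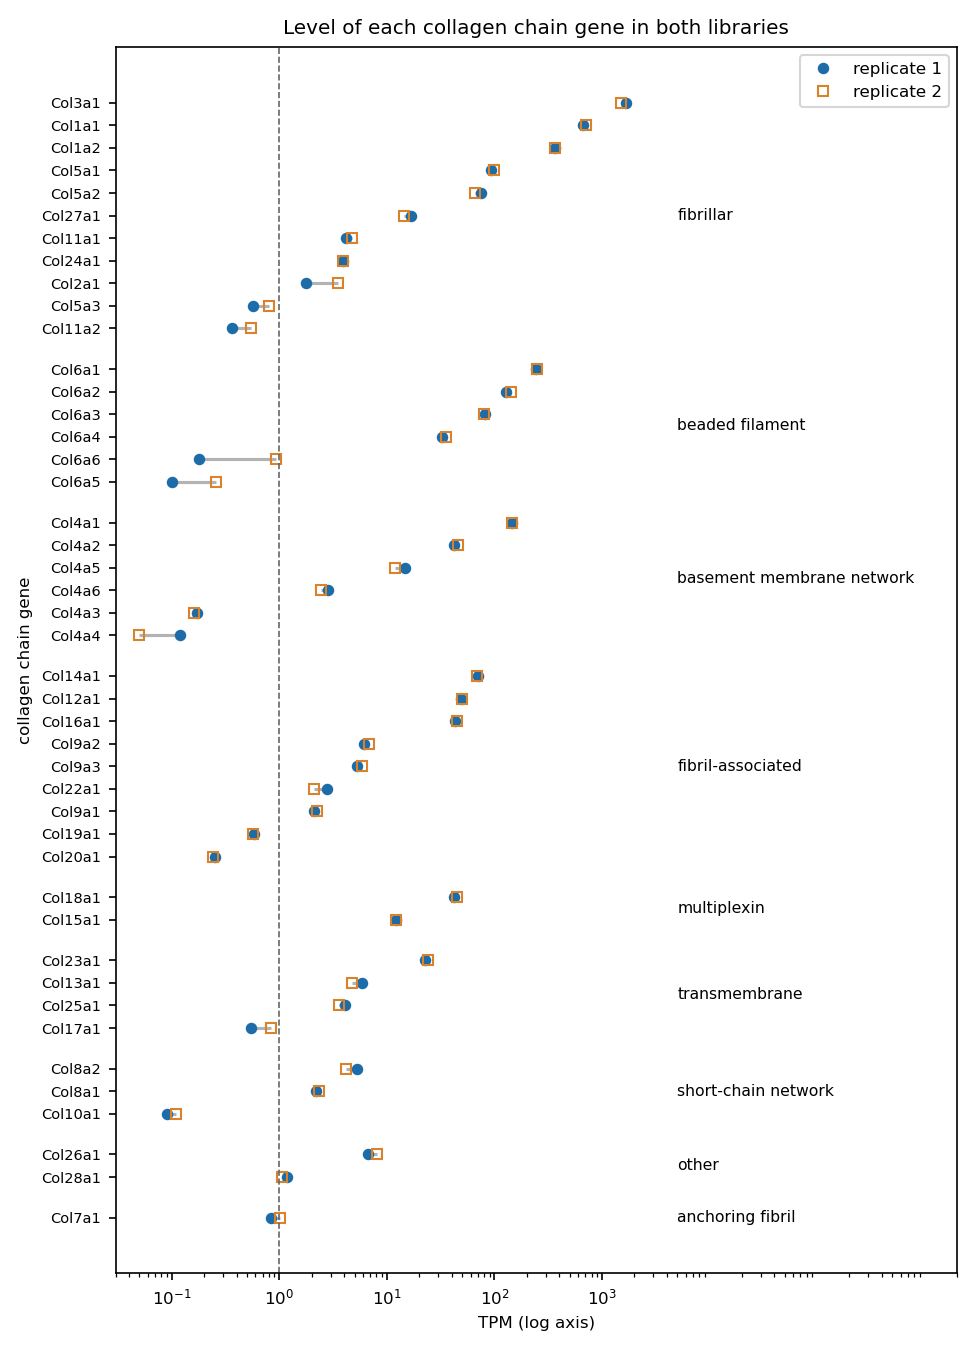
TPM of all 44 collagen chain genes on a log axis, 1 row per gene, grouped by structural class, with a filled circle for replicate 1 and an open square for replicate 2. The dashed line marks TPM 1. Fibrillar genes hold the 3 highest levels, and the libraries lie close to each other for genes above TPM 5.

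The fibrillar class dominated. Its 11 genes summed to 2893 TPM in replicate 1 and 2763 in replicate 2, which was 74.8% and 73.4% of all chain gene TPM. Col3a1, Col1a1 and Col1a2 alone made up 69.7% and 68.2%. Col3a1 encodes the homotrimeric collagen of distensible tissues such as gut, vessel wall and skin, identifier ENSMUSG00000026043.14, and it lies on chromosome 1 at 45311538 to 45349706 of GRCm38. It was at 1673 in replicate 1 and 1496 in replicate 2, 43rd among protein-coding genes by mean. Replicate 1 was higher, with deposited 95% intervals apart, by 1.12-fold. Col1a1 (chromosome 11, 94936224 to 94953042) was at 662.6 and 708.3, 1.07-fold higher in replicate 2 with intervals apart. Col1a2 (chromosome 6, 4504814 to 4541544) was at 362.4 and 364.1. These genes encode the chains of type I collagen, the fibril of bone, tendon and most connective tissue. Per gene, Col3a1 stood above Col1a1 and Col1a1 above Col1a2 in both libraries, and the gaps exceeded the spread between libraries.

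Type V collagen nucleates and limits the width of type I fibrils. Col5a1 was at 92.9 in replicate 1 and 100.1 in replicate 2, Col5a2 at 75.1 and 66.3, and the last chain gene of the type, Col5a3, at 0.570 and 0.810. Col5a3 was thus under TPM 1 in both libraries while its partners were among the highest chain genes. Of the remaining fibrillar genes, Col27a1 was highest at 15.6 ± 1.54. Col11a1, a nucleating chain best known from cartilage, was at 4.44 ± 0.382, Col24a1 at 3.89 ± 0.0283, and Col11a2, its partner in type XI, at 0.360 and 0.540.

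Col2a1, the main fibrillar collagen of cartilage, was at 1.78 in replicate 1 and 3.51 in replicate 2. It had 205 and 349 estimated counts. The value was 1.97-fold higher in replicate 2, although the deposited intervals overlapped. Cartilage markers were low in both libraries. Of 6 cartilage genes only Hapln1 reached TPM 1, at 5.05 in replicate 1 and 2.98 in replicate 2, with intervals apart. Acan went the other way, at 0.0500 and 0.550 from 9 and 93 counts, also with intervals apart. Comp, Matn3 and Cnmd were higher in replicate 2 and Matn1 lower, all with overlapping intervals. The sum over the list was 5.62 in replicate 1 and 4.37 in replicate 2, most of it Hapln1, so it gives no common direction. Bone markers (0 of 3 genes detected, summing to 1.28 and 1.47) and skeletal muscle markers (0 of 4, summing to 1.82 and 1.57) were low as well. Fibroblast and mesenchyme genes were detected for 5 of 6 (sums of 701 and 634), and smooth muscle, endothelium, epithelium, enteric neural and mesothelium genes for all of the 5, 5, 5, 6 and 4 listed. The part of any of these cell types in a collagen level was not tested, and in bulk tissue fewer cells of a type and less RNA per cell cannot be told apart.

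The beaded filament class, type VI, was next, with sums of 487 and 509 TPM. Type VI microfibrils lie between fibrils and cells in most connective tissue and are built from Col6a1, Col6a2 and a further chain. Col6a1 (chromosome 10, 76708792 to 76726168) was at 243.9 in replicate 1 and 248.0 in replicate 2. Col6a2, on the same chromosome at 76595762 to 76623630, was at 128.8 and 143.8, 1.12-fold higher in replicate 2 with intervals apart. Of the genes for that further chain, Col6a3 was at 81.2 and 80.5 and Col6a4 at 32.5 and 35.7. Col6a5 was at 0.10 and 0.260, and Col6a6 at 0.180 and 0.930. Col6a4, Col6a5 and Col6a6 lie next to each other on chromosome 9 in the same orientation, with gaps of 28810 and 27917 bases. Of these neighbours only Col6a4 was detected.

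The basement membrane class summed to 204 and 205 TPM and showed a graded use of its 3 gene pairs. Type IV chains assemble in a few fixed combinations, of which Col4a1 with Col4a2 is the ubiquitous one. Col4a1 was at 144.5 in replicate 1 and 145.1 in replicate 2, and Col4a2 at 41.7 and 45.7, 1.10-fold higher in replicate 2 with intervals apart. Col4a5 was at 14.8 and 12.0, and its neighbour Col4a6, the pair found under epithelia and around smooth muscle, at 2.83 and 2.43. Col4a3 and Col4a4, which with Col4a5 form the network of the mature kidney glomerulus, were under 0.2 in both libraries, at 0.170 and 0.160 and at 0.120 and 0.0500. The 2 lowest genes of the class rested on 33.3 and 31.3 estimated counts for Col4a3 and on 15 and 11 for Col4a4. Reads were thus assigned to both, but at a very low level. Col4a3 shares 289 bases of exon with C430014B12Rik on the opposite strand, which was at 0.70 and 0.65, and its counts were not whole. Whether reads of that gene entered the Col4a3 level was not tested.

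Fibril-associated collagens decorate fibril surfaces and carry interrupted helices. They summed to 180 and 181 TPM. Col14a1 was at 71.1 in replicate 1 and 69.1 in replicate 2, Col12a1 at 48.9 and 49.9, and Col16a1 at 43.4 and 44.5. The values of the 3 genes do not overlap, and their order was the same by mean from complete coding transcripts, given below. The type IX genes, which are partners of type II in cartilage, were lower, with Col9a2 at 6.42 ± 0.474, Col9a3 at 5.57 ± 0.410 and Col9a1 at 2.17 ± 0.0919. Col22a1, of tissue junctions, was at 2.42 ± 0.488. Col19a1 was at 0.580 and 0.570, and Col20a1 at 0.250 and 0.240.

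The multiplexins, basement membrane collagens with glycosaminoglycan chains, were both detected. Col18a1, whose C-terminal fragment is endostatin, was at 42.4 in replicate 1 and 44.5 in replicate 2, level with Col4a2. Col15a1 was at 12.2 in both. Among transmembrane collagens Col23a1 was highest at 22.4 and 24.3, followed by Col13a1 at 5.30 ± 0.820 and Col25a1 at 3.85 ± 0.332. Col17a1, of the hemidesmosome, was at 0.540 and 0.830, while epithelial markers such as Epcam were at 517 and 505. Col7a1, which forms the anchoring fibrils of stratified epithelium, was at 0.840 and 1.01 and so passed the limit in replicate 2 alone. Its complete coding transcript was at 0.21 and 0.20.

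In the short-chain network class, Col8a2 was at 4.71 ± 0.778 and Col8a1 at 2.27 ± 0.120. Col10a1, the marker of hypertrophic cartilage, was at 0.0900 and 0.110 from 6 and 8 counts. It overlaps an exon of Nt5dc1 on the opposite strand by 18 bases. Of the others, Col26a1 was at 7.41 ± 0.947 and Col28a1 at 1.12 ± 0.0849. In all, 11 members were not detected, of which 10 were below TPM 1 in both libraries. None was at 0 in either library. A floor of 3 counts per library corresponded to 0.0682 TPM or less for each of these 11 genes, so that Col4a4 in replicate 2, at 11 counts, was the lowest value at 0.0500. Intervals and floors cover counting error only, since amplified reads are not independent molecules.

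Chain genes differed little between the libraries. To be called different, a gene needed a mean TPM of 5 or more, a difference in log2(TPM + 1) of 1 or more, and deposited 95% intervals that lay apart. None of the 23 members at mean TPM 5 or more met the rule, while 56 of 11324 genes at that level did, or 0.495% (0.45% higher in replicate 2 and 0.0442% higher in replicate 1). With so low a background a count of 0 among 23 genes says little about the family. Intervals alone were apart for 7 of the 23 (Col1a1, Col4a2, Col6a2 and Col23a1 higher in replicate 2, and Col3a1, Col4a5 and Col5a2 higher in replicate 1), against a background of 25.2%. The median absolute difference was 0.11 on the log2(TPM + 1) scale for the members and 0.11 for all genes. The widest of them was Col4a5, with log2(TPM + 1) in replicate 2 minus replicate 1 of -0.29. The widest in the other direction was Col26a1, at 0.23.

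**Figure D2:**
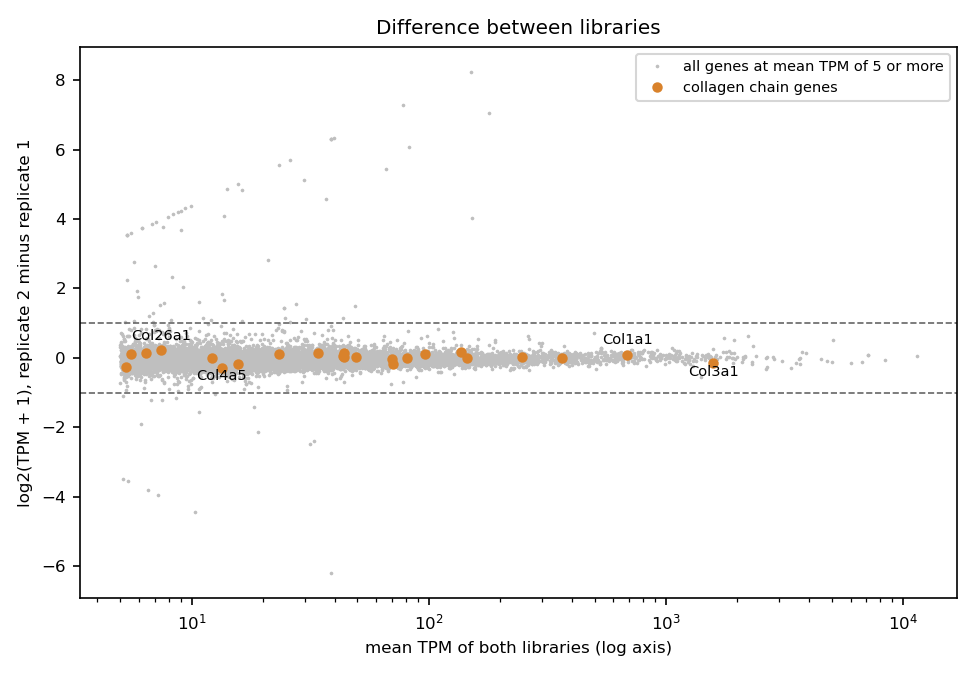
Difference of log2(TPM + 1), replicate 2 minus replicate 1, against mean TPM on a log axis for all 11324 genes at mean TPM of 5 or more (grey) and the 23 collagen chain genes among them (orange). Dashed lines mark a difference of 1 in either direction. The collagen genes all lie between -0.29 and 0.23.

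Below mean TPM 5 the libraries agreed less for single genes. Col6a6 had 36 estimated counts in replicate 1 and 188 in replicate 2, a 5.17-fold difference in TPM with intervals apart. It was the only member to meet the difference rule when the filter on low values was dropped and the pseudocount lowered to 0.1 together, a setting chosen after the values were seen, with a log2 difference of 1.88. Dropping the filter alone raised the genes called among all genes from 56 to 116, and the members called stayed at 0. A count over all genes under both changes is not given here, so the call of Col6a6 has no background beside it. Replicate 2 also held pancreas transcripts, with 6 of 6 pancreas markers at TPM 1 or more and a sum of 662 TPM, against 1 of 6 and 2.05 TPM in replicate 1. The part of that tissue, and of the collection day, in the difference of Col6a6 or any other member was not tested.

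Within a collagen type, chain genes were rarely level. Col1a1 exceeded Col1a2 by 1.83 in replicate 1 and 1.94 in replicate 2 as a ratio of TPM, with a mean of 1.89 ± 0.0830. Type I molecules in most tissues carry more of the Col1a1 product than of the Col1a2 product. The bounds from the deposited intervals (lowest over highest and highest over lowest bound) were 1.79 to 1.86 and 1.91 to 1.98, so the libraries differed by more than counting error.

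Type IV was more uneven. The ratio of Col4a1 to Col4a2 was 3.47 and 3.17, although these genes share a promoter region and start with an overlap of 22 bases on opposite strands. The bounds of that ratio, 3.313 to 3.596 and 3.034 to 3.287, did not overlap between the libraries. The ratio of Col4a5 to Col4a6 was 5.24 and 4.93 from all transcripts. It was 2.22 and 2.26 from complete coding transcripts, so its size depended on an incomplete Col4a5 transcript. That transcript, Col4a5-204 of 3511 bases, held 57.9% and 54.1% of Col4a5 TPM. In both pairs the same gene was higher in both libraries under each way of computing the ratio that was tried.

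For type V, Col5a1 to Col5a2 was 1.24 in replicate 1 and 1.51 in replicate 2, with bounds of 1.20 to 1.32 and 1.41 to 1.6 that did not overlap. For type VI, Col6a1 to Col6a2 was 1.89 and 1.72, with bounds of 1.835 to 1.954 and 1.674 to 1.778 that did not overlap. Col6a3 to Col6a2 was 0.630 and 0.560, with overlapping bounds. From complete coding transcripts alone Col6a3 to Col6a2 was 0.236 and 0.198. Type VIII gave 0.414 and 0.565 for Col8a1 to Col8a2, with overlapping bounds.

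In type IX, Col9a1 to Col9a2 was 0.347 and 0.331. Col9a3 to Col9a2 was 0.867 in both libraries, with bounds that included 1, and 0.596 and 0.659 from complete coding transcripts. Col9a3 shares 234 bases of exon with Tcfl5 on the opposite strand. The use of strand is not given in the sources used here. Tcfl5 itself was at 0.150 and 0.0700, and the part of the overlap in the Col9a3 level was not tested. Col11a1 to Col11a2 was 11.6 and 8.72, but with Col11a2 at 38 and 69 counts the bounds ran from 2.71 to 12.6 and from 2.47 to 8.96.

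**Figure D3:**
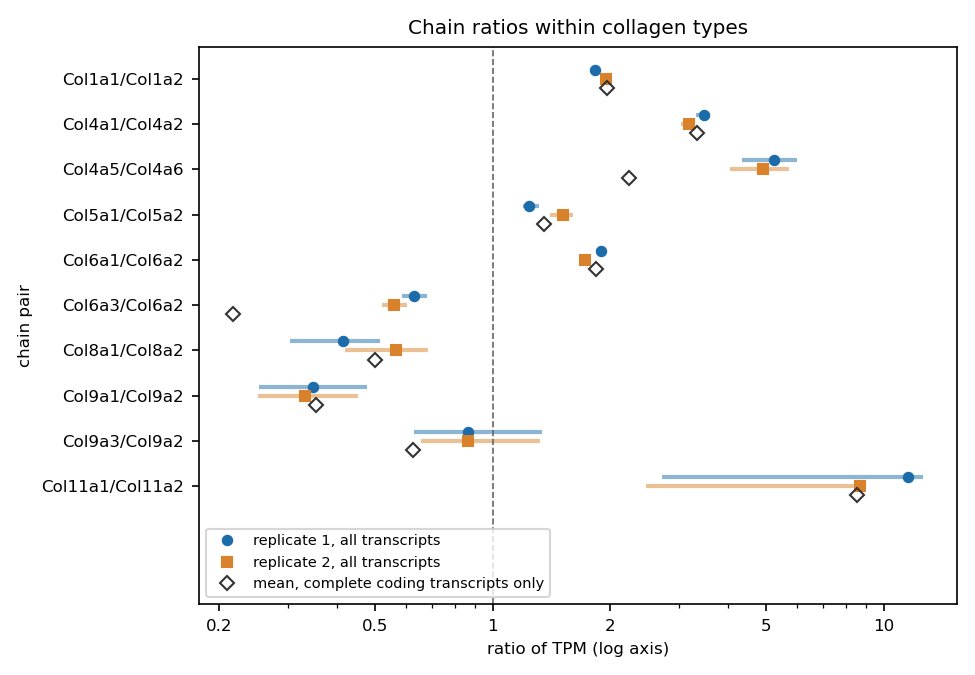
Ratio of TPM for 10 chain pairs on a log axis, with filled circles for replicate 1 and filled squares for replicate 2 from all transcripts. Bars span the ratios of the deposited interval bounds, which centre on a posterior mean and need not centre on the point, and open diamonds give the mean ratio from complete coding transcripts alone. The dashed line marks equal levels. Circles, squares and diamonds lie close for Col1a1/Col1a2 and Col4a1/Col4a2, while the diamond is far to the left for Col4a5/Col4a6 and Col6a3/Col6a2.

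The 3 type IV pairs are each transcribed away from a common start region, and their promoter sequences are set here beside their levels. Col4a1 and Col4a2 overlap at their starts, so no bases outside their exons lie between them. Between Col4a4 and Col4a3 the gap is 71 bases, at chr1:82586850-82586920 of GRCm38. Between Col4a6 and Col4a5 it is 1308 bases on chromosome X, of which the 250 bases before Col4a6 (chrX:141474077-141474326, minus strand) and the 216 before Col4a5 (chrX:141475169-141475384, plus strand) are given. All are read in the direction of the named gene, the first as Col4a4 on the minus strand, from RefSeq promoter windows on GRCm38.p6. Capitals mark a GC box (GGGCGG, or CCGCCC on the other strand) or a CCAAT box (CCAAT, or ATTGG on the other strand).
Col4a4 to Col4a3: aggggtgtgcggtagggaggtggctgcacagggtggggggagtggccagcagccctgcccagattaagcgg
Col4a6: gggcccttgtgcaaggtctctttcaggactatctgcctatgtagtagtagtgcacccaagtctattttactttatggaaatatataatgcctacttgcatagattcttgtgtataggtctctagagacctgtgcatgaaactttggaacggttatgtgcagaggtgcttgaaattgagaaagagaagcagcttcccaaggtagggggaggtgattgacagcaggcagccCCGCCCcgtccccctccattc
Col4a5: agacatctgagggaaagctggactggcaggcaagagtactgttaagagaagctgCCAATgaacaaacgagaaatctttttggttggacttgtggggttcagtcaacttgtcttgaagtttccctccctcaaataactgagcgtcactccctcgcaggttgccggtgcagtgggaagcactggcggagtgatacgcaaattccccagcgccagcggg
The gap of the Col4a4 and Col4a3 pair, both of which were under TPM 0.2, held neither motif nor TATAAA. The stretch before Col4a6 held a GC box and that before Col4a5 a CCAAT box. The whole windows, which reach past the start, held both for Col4a1, Col4a2 and Col4a5. That of Col4a6 held a GC box alone and that of Col4a4 neither. A match is a description of letters and shows no binding. RefSeq windows from 250 bases before to 50 bases after the start were at hand for 35 of the 44 genes, 38 windows in all. A GC box in either direction was in 23 of these 38 windows, or 60.5%, against 35.7% of 32851 windows of all genes. CCAAT was in 13, or 34.2% against 37.4%, and TATAAA (or TTTATA) in 5, or 13.2% against 13.6%.

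Levels of other neighbouring chain genes ranged from close to far apart. Col3a1 and Col5a2 meet tail to tail on chromosome 1 with a gap of 24614 bases, and Col3a1 was 22.3 and 22.6 times higher. Col9a1 and Col19a1, also tail to tail, 9205 bases apart, differed 3.64-fold and 3.93-fold. Col6a1 and Col6a2, on the same strand 85161 bases apart, differed 1.89-fold and 1.72-fold. Col6a6 was 1.80 and 3.58 times the level of Col6a5, and Col6a4 was 325 and 137 times that of Col6a5. The head-to-head pairs did not stand apart from these, with Col4a1 3.47 and 3.17 times the level of Col4a2. Col4a5 was 5.24 and 4.93 times the level of Col4a6, or 2.22 and 2.26 times from complete coding transcripts. Col4a3 was 1.42 and 3.20 times the level of Col4a4, both resting on few counts.

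The transcript tables give IsoPct, the percent of a gene's TPM held by each of its transcripts. Of 32 chain genes with several transcripts and 100 or more counts in each library, 31 had the same leading transcript in both, against a background of 92% of genes. Col13a1 was the exception. For 17 of the 33 members with that many counts, complete coding transcripts held 90% or more of TPM in both libraries. These included Col1a1 (99.5% and 99.4%), Col1a2 (95.6% and 95.5%), Col4a1 (99.8% and 99.7%) and Col6a1 (99.9% and 99.7%). The same count over all protein-coding genes is not given here, so whether the family is unusual in this was not tested.

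At the other end, complete coding transcripts held less than 50% in both libraries for 7 genes, namely Col4a5, Col6a3, Col6a4, Col12a1, Col16a1, Col24a1 and Col27a1. This count, too, has no background over all protein-coding genes beside it. The leading transcript was not annotated as coding in 5 of the 32 genes with several transcripts and enough counts (Col6a3, Col6a4, Col16a1, Col24a1 and Col27a1), against a background of 7.46% of such genes. Col6a3 shows how this arises in the table. Its leading transcript, Col6a3-206, is a retained-intron fragment of 646 bases, and it held 53.1% and 56.0% of the gene's TPM from 548 and 579 estimated counts. The main coding transcript, Col6a3-202 of 9001 bases and 2677 residues, held 37.0% and 34.5% from 6206 and 5816 counts. Because TPM divides counts by length, a short model with few counts can lead a long gene.

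The same was seen at the highest level. Col3a1-201, the full transcript of 1464 residues, held 64.1% and 67.0% of Col3a1 TPM and 93.8% and 94.5% of its counts. An incomplete coding model of 737 bases, Col3a1-205, held 34.9% and 32.1% of TPM. Counted from complete transcripts alone, Col3a1 was at 1038 ± 49.3 and still the highest chain gene. Col6a3 moved from 80.9 ± 0.474 to 29.0 ± 1.45, Col12a1 from 49.4 ± 0.721 to 15.2 ± 0.255 and Col16a1 from 43.9 ± 0.820 to 8.16 ± 1.84. Col14a1 moved from 70.1 ± 1.41 to 41.9 ± 1.41 and Col6a4 from 34.1 ± 2.28 to 12.5 ± 0.424. Of Col6a3 counts, complete transcripts held 85.0% in replicate 1 and 83.9% in replicate 2. For Col12a1, Col14a1 and Col6a4 the shares lay between 70.0% and 83.0%. For Col16a1 they were 30.2% and 39.9%, so its fall did not rest only on short models with few counts. Col16a1-210, an incomplete coding model of 4037 bases, had 951 and 820 counts. Below the highest 7 genes the ranking of chain genes therefore depended on which transcripts were counted, whereas Col4a2 (43.5 ± 2.83) and Col18a1 (43.4 ± 1.58) hardly moved.

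**Figure D4:**
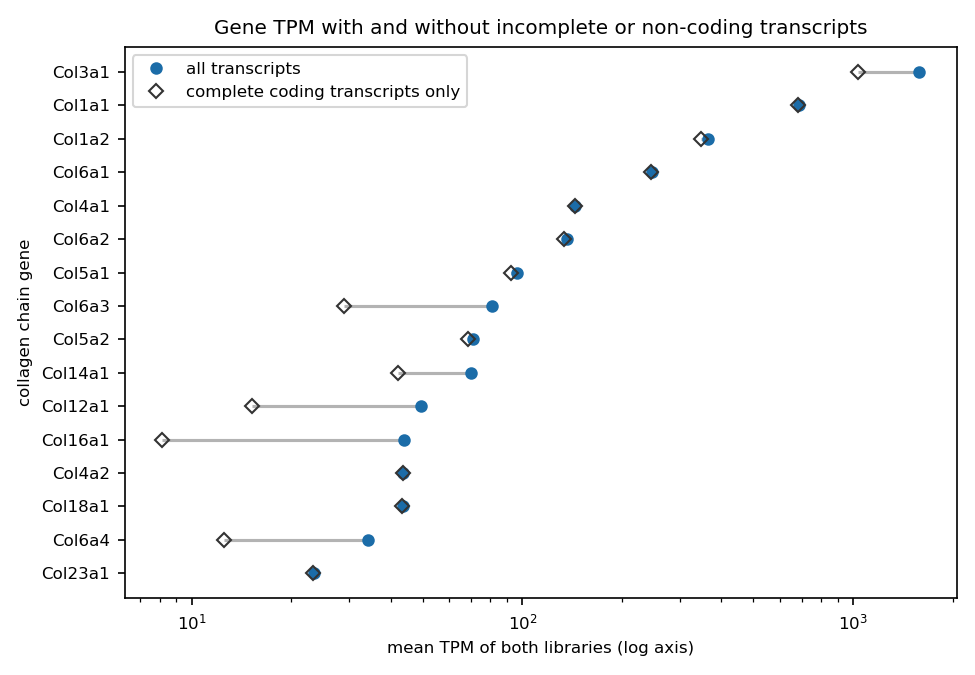
Mean TPM of both libraries on a log axis for the 16 chain genes at mean TPM of 20 or more, from all transcripts (filled circles) and from complete coding transcripts alone (open diamonds). The symbols coincide for Col1a1, Col4a1, Col6a1 and Col18a1, and lie apart for Col3a1, Col6a3, Col12a1, Col14a1, Col16a1 and Col6a4.

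The well-used fragments lay mostly at the 3′ side of their genes. In chain genes with 100 or more counts, 15 transcripts without a complete coding sequence held 20% or more of their gene's TPM on average, a limit chosen after the values were seen. Of these 12 lay wholly on the 3′ side of the gene's midpoint and 1 wholly on the 5′ side. Of all 105 such transcripts of these genes, used or not, 50 lay on the 3′ side and 27 on the 5′ side. Examples were Col16a1-207 and Col27a1-205, each starting 96.7% of the way along its gene. Whether read coverage along the transcript or the annotation set this was not tested.

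Alternative starts were clear in 2 genes. Col18a1-202, which begins at the upstream start and encodes the shorter form of 1315 residues, held 98.6% of Col18a1 TPM in both libraries. Col18a1-201, from the downstream start and with 1774 residues, held 0.920% and 0.690%. The type IX gene Col9a1 was read from its internal start, where Col9a1-202 encodes a form of 680 residues without the large N-terminal domain. It held 97.1% and 100% of TPM, while Col9a1-201, the long form of 921 residues described from cartilage, had 0 counts in both libraries against 141 and 156.

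Col2a1 has splice forms that differ in exon 2, of 204 bases (chromosome 15, 98000403 to 98000606), which encodes a cysteine-rich domain kept in tissues other than mature cartilage. Col2a1-201, with the exon, held 81.5% in replicate 1 and 51.3% in replicate 2, and Col2a1-202, without it, 18.5% and 33.2%. In estimated counts these were 169 and 212 against 36.4 and 131. The posterior mean shares deposited beside these were 33.1% and 31.4% with the exon and 23.3% and 29.0% without it. The form with the exon was the higher by both estimates, but the size of its share depended on the estimate.

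Among other genes with several used forms, some shares were close in both libraries and some were not. Col13a1-206, an incomplete form, held 38.8% in replicate 1 and 19.3% in replicate 2, and Col13a1-205, of 739 residues, 27.5% and 38.4%. Col26a1-202 held 55.3% and 67.1%, and Col11a1-201 71.1% and 59.4%. Col14a1-203 held 44.8% and 44.5% and the incomplete Col14a1-204 39.6% and 40.8%. Col12a1-201, of 3065 residues, held 30.5% and 30.6%. Col15a1 was divided between Col15a1-203, a short form of 278 residues, at 50.9% and 55.4%, and Col15a1-202, of 1367 residues, at 45.1% and 42.4%. The full Col16a1-201 held 15.8% and 21.2%, the full Col6a4-201 39.4% and 34.2%. Where transcripts share most exons these shares are model estimates.

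The genes that process collagen were read beside the chains. All 20 chaperones and modifying enzymes were detected, with a median of 48.5 TPM, the highest median of the 4 lists. P4hb, the shared subunit of prolyl 4-hydroxylase that stabilises the helix, was at 605 in replicate 1 and 647 in replicate 2. Ppib, the cyclophilin that helps fold procollagen, was at 414 and 449. Serpinh1, the collagen chaperone Hsp47, was at 365 and 303.

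Of the 13 genes for propeptide cleavage and crosslinking 10 were detected, with a median of 7.55. Pcolce, the enhancer of procollagen C-proteinase, was at 97.0 and 85.4, the proteinase Bmp1 at 38.8 in both and the lysyl oxidase Loxl2 at 34.0 and 30.7. Adamts14 was at 0.580 and 0.980, Pcolce2 at 0.810 and 0.530, and Tll2 had 0 counts in both. Of 10 receptors 8 were detected, with a median of 5.92. Itgb1, the common subunit of the collagen-binding integrins, was at 259 and 239, the discoidin receptor Ddr1 at 34.6 and 34.1 and Ddr2 at 35.7 and 31.3. Itga10 was at 0.690 and 0.480 and Gp6, the platelet receptor, at 0.33 and 0.20. Of 11 transcription factors known to act on collagen genes 10 were detected, with a median of 17.7. Nfyc, a subunit of the CCAAT-binding factor, was at 85.3 and 79.1, Cbfb at 49.6 and 41.3 and Sp3, which binds GC boxes, at 47.0 and 43.4. Runx2, of the bone lineage, was at 0.770 and 0.850. None of the genes on these lists met the difference rule.

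**Figure D5:**
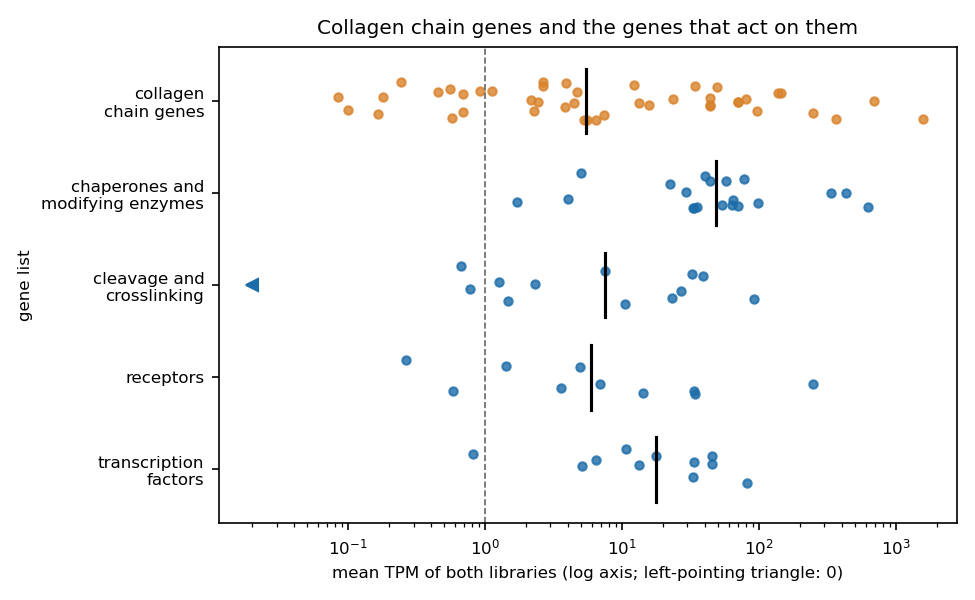
Mean TPM of both libraries on a log axis for the 44 collagen chain genes (orange) and 4 lists of genes that act on them (blue), with 1 point per gene and vertical position within a list at random. Black bars are medians, the dashed line marks TPM 1 and the triangle marks a gene at 0. The chaperones and modifying enzymes all lie above TPM 1, while the chain genes spread widest.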

How the data were processed

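Total RNA-seq was deposited for 2 libraries. Alignment was to mm10 and annotation was GENCODE M4, per the file headers and deposited notes. The quantification tool and strand setting were not given in the sources used here. For each gene and transcript, expected counts and TPM were deposited by the authors. Interval bounds of TPM, taken here as scores, and IsoPct, a percent, are as deposited. A bound is set around a posterior mean, so that the TPM may lie outside.

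Symbols, biotypes, coordinates and coding sequences came from GENCODE M21 on GRCm38 (42462 of 43346 gene identifiers matched), and promoter windows from RefSeq on GRCm38.p6. Of 201 member transcripts 198 were in M21. Proteins were not used here. Spike-ins and features with numeric identifiers were left out. Complete coding transcripts are those annotated protein_coding with both ends. Exons of several members overlap those of other genes, and 6 members had counts that were not whole, hence shared between genes (Col4a3, Col5a1, Col6a4, Col6a5, Col6a6 and Col9a3).

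There being 1 group, no groups were compared. Members at mean TPM 20 or more, of a chain pair, or under TPM 1 in either library were named with values per library and the others with at least their mean (Col2a1, Col15a1 and transcripts of other members below TPM 20 were given in more detail after their values were seen), and of each list the 3 highest and those under TPM 1. The members, lists and rules were chosen with earlier results of these data known. Python 3.11.15, numpy 2.4.6, pandas 2.3.3 and R 4.3.3 were used, with edgeR 4.0.16 and DESeq2 1.42.0 for scaling alternatives only, on rounded expected counts. The difference rule and repeat search were run on simulated data. There the rule used intervals computed from counts, not the deposited ones, so its behaviour with the deposited intervals was not tested.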

Additional observations from a re-analysis of the deposited data

How the results depend on the processing

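Detection, differences, share, chain ratios, leading transcripts, class sums and pathway lists were recomputed under other settings, and none reversed. Sequence, neighbour, fragment position and marker results were not. The 33 detected members became 37 at TPM 0.5, 22 at TPM 5, 34 with posterior means, 43 with 10 estimated counts and 33 to 34 without a library. The count of 0 differing members held under all planned settings and was 1 without filter at a pseudocount of 0.1, with no count over all genes beside it. The share of gene TPM, 0.424%, was 0.50% over nuclear protein-coding genes, 0.415% with posterior means, 1.26% of estimated counts, 0.338% from complete coding transcripts and 0.420% to 0.429% without a library.

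Ratios from counts per base of the longest coding transcript were 3.74 for Col4a5/Col4a6, 2.11 for Col6a1/Col6a2, 0.267 for Col6a3/Col6a2, 0.280 for Col9a1/Col9a2 and 0.645 for Col9a3/Col9a2. From coding transcripts they were 0.265 for Col6a3/Col6a2, 0.353 for Col9a1/Col9a2 and 0.627 for Col9a3/Col9a2. From complete ones, added after the values were seen, Col4a5/Col4a6 was 2.24, Col6a3/Col6a2 0.217, Col9a1/Col9a2 0.353 and Col9a3/Col9a2 0.627. Posterior means gave 0.940 for Col9a3/Col9a2 and 4.71 for Col11a1/Col11a2. The cause of these moves, beyond the transcripts counted, was not tested. At TPM 5 the receptors detected were 5 of 10. The fibrillar sum was 2240 TPM, the beaded filament sum 422 and the fibril-associated sum 79.6 from complete transcripts, against 2828, 498 and 181. Scaling moved replicate 2 by 0.05 (TMM), 0.05 (DESeq2) and -0.09 (spike-ins) on the log2 scale, and no member was called under any.

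No paired analysis was possible because there is only 1 group. With 2 libraries of 1 group an SD is a rough guide, and depth limits genes under TPM 1, where Col4a4, Col10a1 and Col20a1 rest on 15 counts or fewer per library.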

Other observations

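The Gly-X-Y repeat is not limited to collagen chain genes. Of 21151 protein-coding genes searched, 63 encoded an uninterrupted run of 20 or more triplets in their longest coding transcript, the 44 chain genes and 19 others. Of these 19, 9 were detected at TPM 1 or more in both libraries, where 61.3% of all protein-coding genes were. The highest were Colec12, a scavenger receptor with a collagen-like stalk, at 64.8 ± 5.81 TPM and with a run of 49 triplets, and Emid1, a secreted protein with an EMI domain, at 64.2 ± 7.24. C1qb, a chain of the complement component C1q made by macrophages, was at 49.1 in both libraries. Colec10, a collectin, was at 37.1 ± 5.25 and Scara3 at 11.9 ± 1.01. Marco, Otol1, Gldn and Adipoq had 0 counts in both libraries. The highest of these levels lay near those of Col14a1 at 70.1 and Col12a1 at 49.4. The genes were found by sequence alone, and no test was made on them.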
